A study of Rattus norvegicus with 50 samples.

Results

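Chemokines are small secreted proteins that draw white blood cells into tissue, and 7 of their genes are described here: the CC chemokines Ccl2, Ccl3, Ccl4, Ccl5, Ccl7 and Ccl20 and the C chemokine Xcl1. They were taken by symbol from the table that pairs probe sets with genes, all 7 symbols asked for were present, and each had 1 probe set with 1 symbol. They are 7 of the 14217 genes measured in RNA from the livers of 50 rats. Every animal was a female Brown Norway rat (Bn/Crl strain 091, MHC haplotype RT1n) aged 9 to 11 weeks. Galactosamine, a sugar amine that harms hepatocytes by trapping their uridine nucleotides, was injected once into the peritoneum at 750 mg/kg, and those livers were taken after 3 h, 24 h, 48 h or 8 d. Nevirapine, an antiretroviral drug that can injure the human liver, was given by mouth at 150, later 100 and then 75 mg/kg, with livers taken 3 h, 24 h, 48 h or 15 d after the first dose. The combination rats received nevirapine for 7 d before the same galactosamine injection and stayed on nevirapine, and their livers were taken 3 h, 24 h, 48 h or 8 d after the injection, the last after 15 d of dosing. Vehicle rats received sham doses and were sampled at 3 h, 24 h, 48 h, 8 d and 15 d. The nevirapine rats of 3 h also received a sham injection into the peritoneum, 1 h before sampling. Each of the 17 groups held 3 rats, except galactosamine at 48 h with 2. The last oral dose, drug or sham, came 2 h before sampling in all groups but those at 3 h, where it came 5 h before in the vehicle, galactosamine and combination rats and 3 h before in the nevirapine rats. The study asked what the liver goes through in the 8 d in which the combination, and neither drug alone, led to fibrosis.

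In the injured liver, chemokines are made by Kupffer cells, the macrophages of the sinusoids, and by endothelial cells, stellate cells, hepatocytes and lymphocytes. Ccl2 and Ccl7 bind the receptor CCR2 and bring monocytes out of the blood. Ccl3, Ccl4 and Ccl5 attract monocytes, T cells and NK cells, and Ccl3 and Ccl5 bind the receptor CCR1. Ccl20 is the ligand of CCR6, found on B cells, some T cells and dendritic cells, and Xcl1 is made mainly by activated CD8 T cells and NK cells and binds XCR1 on cross-presenting dendritic cells. Several of these genes are classic targets of NF-kB and AP-1 in cells stimulated by cytokines or bacterial products.

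Signals are given on the log2 scale of the deposited RMA values, where a difference of 1 is a doubling of the signal. Levels of different probe sets are not compared with each other. The 27 probe sets for Bacillus subtilis control genes had mean signals from 1.94 to 4.37, of which the second highest was 3.30, so that the level of 4.37 rests on 1 probe set. It was kept as the cautious choice. A group mean under 4.37 was therefore not shown to exceed background, and a fold change against such a group is given as a lower bound, the brighter group's mean over 4.37. The labelled tissue was borne out by the hepatocyte genes: group means of Alb lay between 14.14 and 14.18, and all 9 hepatocyte markers measured stood at or above the 96.0th percentile of genes. Array medians ran from 4.954 to 5.093, and the mean correlation of an array with the others of its group ran from 0.9788 to 0.9971. The 3 lowest were combination rat63 at 3 h and rat72 and rat70 at 48 h, and calls of the 7 genes that were lost without them are marked. The GAPDH 3′ minus 5′ difference, which grows as RNA breaks down, ran from 0.009 to 0.86. The labels used here give no hybridisation dates, so batches were not tested.

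All 7 genes matched the RefSeq table by gene ID. Ccl2 and Ccl7 are neighbours on chromosome 10 with 0 protein-coding genes between them, as are Ccl3 and Ccl4 on the same chromosome, with Ccl5 separated from Ccl3 by 2 genes. Ccl20 lies on chromosome 9 and Xcl1 on chromosome 13. RefSeq promoters (build GRCr8) were held for 3 of the 7, and the 250 bases before each start site are printed because they belong to the member with the largest rise (Xcl1), the CCR2 ligand next to Ccl2 (Ccl7) and the member that stayed below background throughout (Ccl20). Capitals mark matches to the motifs searched on both strands. The region of Xcl1 is chr13:79785441-79785690 on the minus strand, that of Ccl7 chr10:67513845-67514094 on the plus strand and that of Ccl20 chr9:91836909-91837158 on the plus strand.
Xcl1: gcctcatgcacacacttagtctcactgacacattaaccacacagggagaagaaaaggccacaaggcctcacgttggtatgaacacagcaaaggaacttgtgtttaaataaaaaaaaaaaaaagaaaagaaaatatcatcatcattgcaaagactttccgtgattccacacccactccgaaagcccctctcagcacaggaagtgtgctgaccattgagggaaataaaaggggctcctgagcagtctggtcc
Ccl7: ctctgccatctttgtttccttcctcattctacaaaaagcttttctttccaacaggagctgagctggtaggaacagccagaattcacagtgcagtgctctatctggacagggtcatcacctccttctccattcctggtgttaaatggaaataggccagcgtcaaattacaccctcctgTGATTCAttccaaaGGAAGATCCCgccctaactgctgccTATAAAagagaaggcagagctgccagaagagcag
Ccl20: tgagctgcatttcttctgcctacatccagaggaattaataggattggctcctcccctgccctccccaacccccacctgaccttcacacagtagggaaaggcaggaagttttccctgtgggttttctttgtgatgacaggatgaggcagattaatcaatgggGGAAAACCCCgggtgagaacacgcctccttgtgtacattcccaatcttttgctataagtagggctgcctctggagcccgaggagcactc
The Ccl7 stretch holds an AP-1 match, TGATTCA, starting 73 bases before the start site, an NF-kB match on the minus strand, read here as GGAAGATCCC, at 59 bases, and a TATA match at 34 bases. The Ccl20 stretch holds an NF-kB match on the minus strand, read here as GGAAAACCCC, at 89 bases. None of the 7 motifs occurred in the Xcl1 stretch. Of 33469 RefSeq promoters of this length, 6.33% held the NF-kB motif, 6.34% AP-1 (TGANTCA), 1.59% CRE (TGACGTCA), 9.22% C/EBP (TTGCNNAA), 3.41% the interferon-stimulated response element (ISRE), 7.67% GAS (TTCNNNGAA) and 12.9% the letters TATAAA of the core promoter box. A match describes the letters only.

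Over the 17 group means, Xcl1 ranged over 4.29 and Ccl2 over 4.04 log2 units, wider than 99.4% and 99.1% of the genes measured. Ccl4 ranged over 2.61, Ccl3 over 2.51, Ccl5 over 1.61, Ccl7 over 1.19 and Ccl20 over 0.45, where the median gene ranged over 0.97. Xcl1, Ccl2, Ccl3 and Ccl4 were highest 3 h after galactosamine, Ccl7 at 24 h, and Ccl5 in vehicle rats at 15 d. Group means lay below background in 14 of 17 groups for Ccl2, in 16 for Ccl7, in 10 for Xcl1 and in all 17 for Ccl20, and in none for Ccl3, Ccl4 and Ccl5. Against the second highest control probe set, at 3.30, the counts were 6 for Ccl2, 15 for Ccl20 and 0 for Ccl7 and Xcl1. Single rats of Ccl20 stayed between 2.90 and 3.69, below background throughout. Its 1 call, a rise of 0.45 ± 0.15 from 48 h to 8 d of galactosamine (adjusted p = 0.0164, with 34.9% of all genes called), lay between 2 group means under background. The call was lost with each time relative to its own vehicle group (adjusted p = 0.0568). It was also lost without any 1 of galactosamine rat26, rat27 or rat103 (adjusted p = 0.0674, 0.104 and 0.0928).

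**Figure D1:**
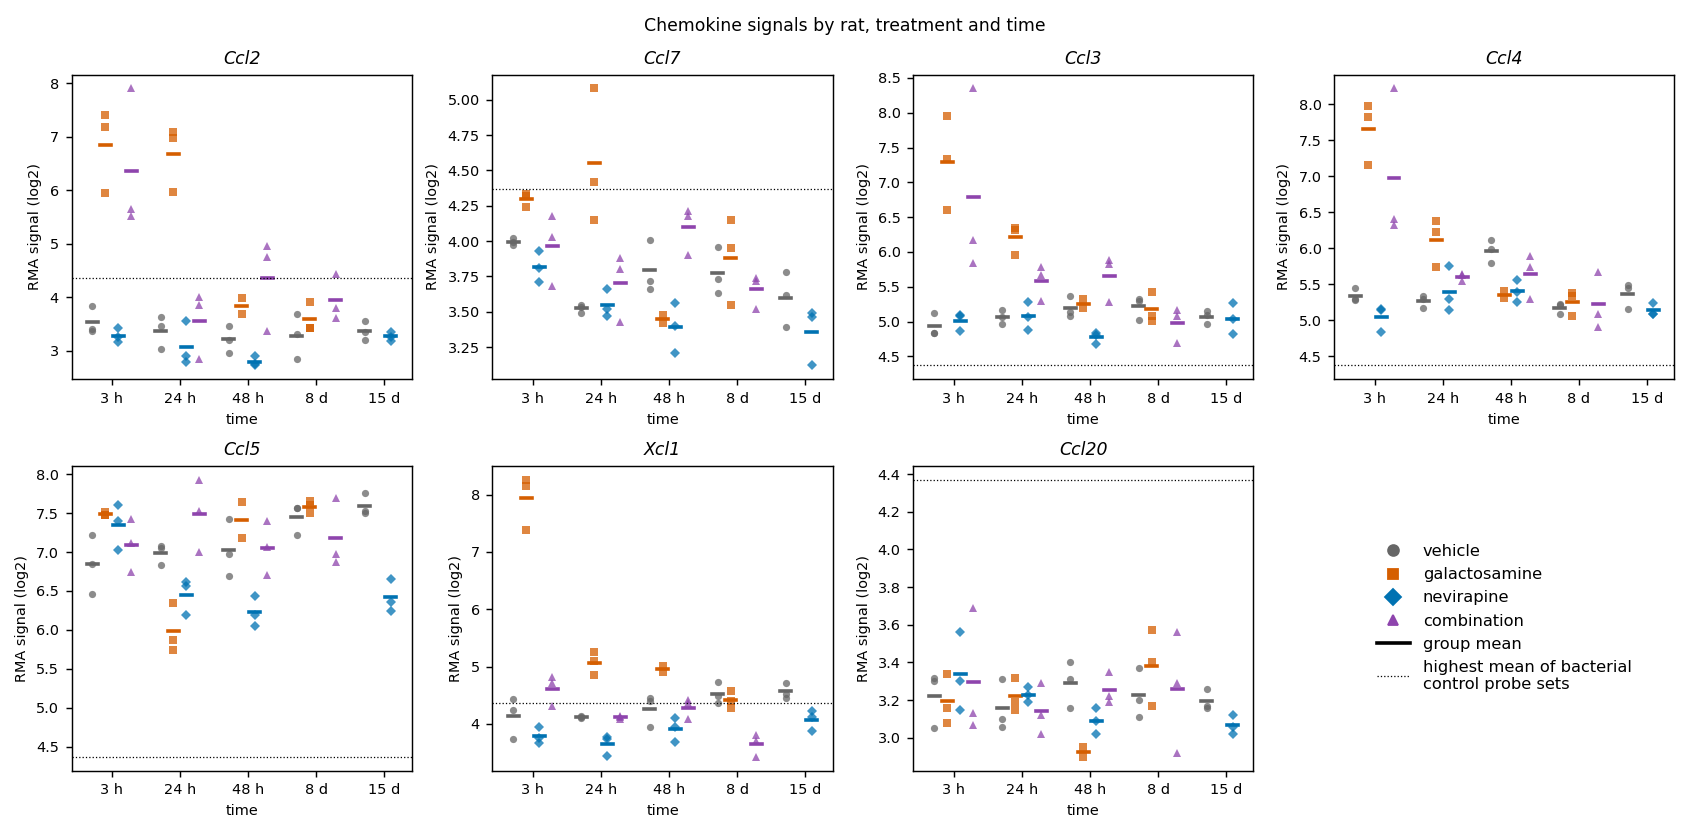
RMA signal (log2, vertical axes, each with its own range) of the 7 genes in each of the 50 rats, by time and treatment. Points are rats, bars are group means, and the dotted line is the background level of 4.37. Xcl1 stands near 8 in the galactosamine rats at 3 h and between 4.31 and 4.82 in the combination rats of that time.

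Galactosamine alone raised 5 of the 7 chemokines at 3 h, with Xcl1 and the monocyte attractant Ccl2 moving furthest. It raised 5 at 24 h, when Ccl2 moved furthest, and no member was called against vehicle at 8 d. At 3 h the 5 were Ccl2, Ccl3, Ccl4, Ccl5 and Xcl1, while 14.9% of all genes were called higher and 32.9% in either direction, and the median difference over the 7 was 2.31 against 0.00 over all genes. At 24 h Ccl2, Ccl3, Ccl4, Ccl7 and Xcl1 were higher and Ccl5 was lower, against 30.2% of all genes called higher and 28.5% lower (58.8% in all), with a median of 0.95 against -0.07. In whole liver RNA, a change in the number of cells of a type and a change in RNA per cell cannot be told apart.

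Ccl2 signals in the galactosamine rats were 7.40, 5.95 and 7.17 at 3 h and 5.96, 7.09 and 6.97 at 24 h. The 3 vehicle rats read 3.41, 3.37 and 3.84 at 3 h and 3.47, 3.03 and 3.63 at 24 h. Every galactosamine rat thus stood over 2 log2 units above every vehicle rat of its time. The difference was 3.30 ± 0.41 (SE from the fit, 3 rats a group) at each time, at least 5.53-fold at 3 h (adjusted p = 5.86e-08, limma) and at least 4.94-fold at 24 h (adjusted p = 7.81e-09). By 48 h the 2 galactosamine rats read 3.68 and 3.98, below background, and the step from 24 h fell by 2.84 ± 0.46 (adjusted p = 2.46e-06). Ccl7, the other CCR2 ligand, moved less and was called against vehicle at 24 h only. From 3 h to 24 h of galactosamine its level changed by 0.26 ± 0.16 and was not called (adjusted p = 0.159). That step passed relative to own vehicle (0.72, adjusted p = 0.00758), with cyclic loess (0.44, 0.0168) and without galactosamine rat22 (0.45, 0.0183). The vehicle means of Ccl7 were 3.99 at 3 h and 3.52 at 24 h, both below background. Its galactosamine rats read 4.24, 4.32 and 4.33 at 3 h, a difference of 0.30 ± 0.16 from vehicle that did not pass (adjusted p = 0.161), although it did with all 15 vehicle rats as the control (0.56, adjusted p = 0.000944) and when only these groups were fitted (0.0264). At 24 h they read 4.15, 5.08 and 4.42 against 3.53, 3.49 and 3.55 in vehicle, and the rise of 1.02 ± 0.16 passed (adjusted p = 8.87e-07), at least 1.13-fold since vehicle was below background. The groups did not overlap at 24 h, and the rise had ended by 48 h, when the galactosamine rats read 3.48 and 3.42 (48 h against 24 h, -1.10 ± 0.18, adjusted p = 2.91e-06).

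Ccl3 signals in the galactosamine rats were 7.95, 6.60 and 7.34 at 3 h, against 4.83, 4.84 and 5.12 in vehicle, a 5.15-fold rise (2.37 ± 0.32, adjusted p = 2.28e-07). Ccl4 read 7.82, 7.16 and 7.98 against 5.29, 5.44 and 5.28, a 4.96-fold rise (2.31 ± 0.27, adjusted p = 1.21e-08). For neither gene did the groups overlap. Both then fell, to 5.96, 6.35 and 6.32 for Ccl3 and 5.74, 6.38 and 6.23 for Ccl4 at 24 h, still 2.20-fold and 1.80-fold above vehicle (adjusted p = 0.00242 and 0.00656). From 3 h to 24 h Ccl3 fell by 1.09 ± 0.32 (adjusted p = 0.00309, but 0.0507 without galactosamine rat16) and Ccl4 fell by 1.53 ± 0.27 (adjusted p = 4.23e-06). At 48 h the differences from vehicle were 0.06 ± 0.36 for Ccl3 and -0.61 ± 0.30 for Ccl4 (adjusted p = 0.905 and 0.105). The vehicle rats of that time read 5.79, 5.99 and 6.11 for Ccl4, the highest vehicle group of this gene.

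Ccl5 in the galactosamine rats also fell between the first 2 times, but from above vehicle to below it (24 h against 3 h, -1.5 ± 0.23, adjusted p = 2.99e-07). At 3 h the galactosamine rats read 7.48, 7.47 and 7.52 against 6.85, 6.46 and 7.22 in vehicle, a 1.57-fold rise (0.65 ± 0.23, adjusted p = 0.0249). This call was lost without any 1 of galactosamine rat16, rat17 or rat18 (adjusted p = 0.0547, 0.0512 and 0.0633) or of vehicle rat1 or rat2 (0.0565 and 0.185), and also with all 15 vehicle rats as the control (0.231). At 24 h they read 5.87, 5.74 and 6.35 against 7.05, 6.83 and 7.08, a 1.99-fold fall (-1.0 ± 0.23, adjusted p = 0.000259) with no overlap. At 48 h the 2 rats read 7.18 and 7.64, higher by 1.42 ± 0.25 than at 24 h (adjusted p = 1.13e-05) and not called against vehicle (0.39 ± 0.25, adjusted p = 0.225). The galactosamine rats at 24 h were the lowest of the 17 groups for Ccl5, at 5.99 ± 0.32 (SD, n = 3), next to nevirapine at 48 h at 6.23 ± 0.20, and the 2 groups overlapped.

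Xcl1 signals were 8.26, 7.39 and 8.15 in the galactosamine rats at 3 h and 3.74, 4.24 and 4.43 in their vehicle rats. The lowest of these galactosamine rats, at 7.39, stood above the highest rat of any other group, a galactosamine rat of 24 h at 5.26. The rise over vehicle was 3.8 ± 0.18, at least 11.8-fold (adjusted p = 6.46e-19). At 24 h the galactosamine rats read 4.86, 5.09 and 5.26 and at 48 h 4.91 and 5.01. Most of the rise was therefore gone within 24 h (24 h against 3 h, -2.86 ± 0.18, adjusted p = 2.56e-17), yet Xcl1 was still above vehicle at 24 h (0.95 ± 0.18, at least 1.63-fold, adjusted p = 1.37e-05) and at 48 h (0.69 ± 0.20, at least 1.5-fold, adjusted p = 0.00471). At 48 h it was the 1 member called, where 39.4% of all genes were. The call at 48 h was lost without galactosamine rat27 (adjusted p = 0.056) and with the GAPDH difference as a covariate (0.051). That difference averaged 0.138 in the galactosamine rats and 0.612 in the vehicle rats of 48 h, and its part in the result was not tested further. From 48 h to 8 d Xcl1 fell by 0.54 ± 0.20 (adjusted p = 0.0288), a call lost without any 1 of galactosamine rat26, rat27, rat103 or rat104 (adjusted p = 0.0829, 0.166, 0.0593 and 0.094). At 8 d galactosamine and vehicle differed by -0.12 (95% interval -0.47 to 0.24). None of the 7 was called at 8 d, at any unadjusted p under 0.05 either, where limma called 5 genes of all, 0.0352%.

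**Figure D2:**
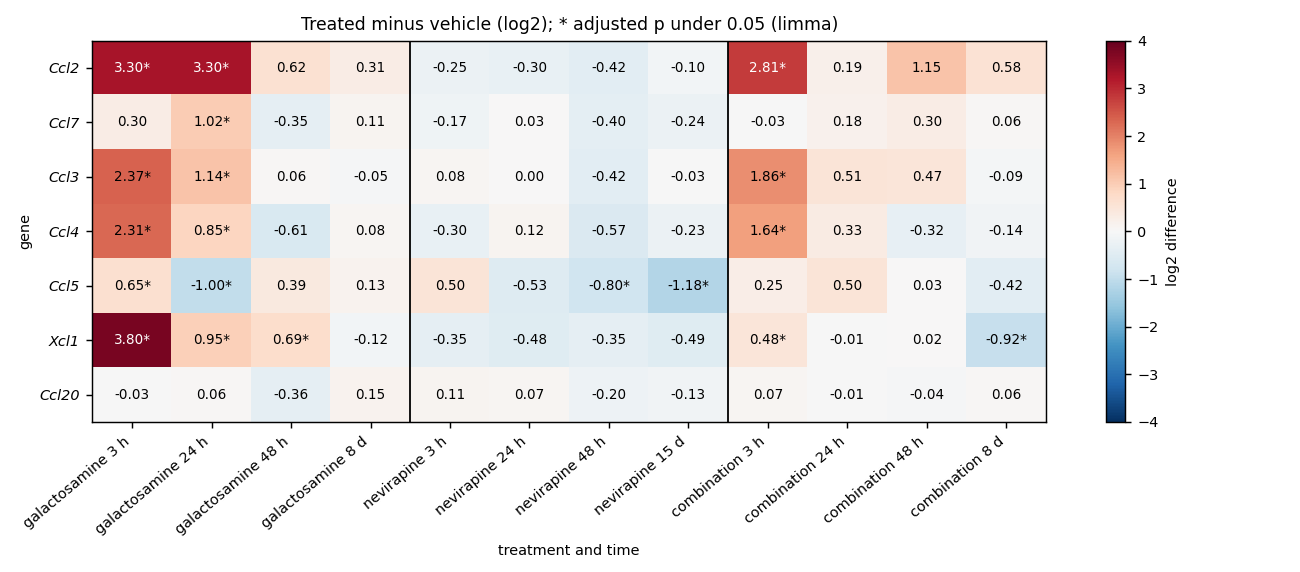
Log2 difference from vehicle of the same time (numbers and colour) for the 7 genes (rows) in the 12 treatment groups (columns), with * for an adjusted p under 0.05 (limma). The combination at 8 d is set against vehicle at 15 d. Marked cells gather at 3 h and 24 h of galactosamine and at 3 h of the combination.

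After 7 d of nevirapine the same injection raised Ccl2, Ccl3 and Ccl4 at 3 h, but Xcl1 only slightly, and at 24 h no member was called against vehicle. The combination and galactosamine were each set against the same vehicle rats at 3 h, 24 h and 48 h. Of the 7, 4 were called higher at 3 h against 15.2% of all genes (32.5% in either direction), with a median difference of 0.48 against -0.06. At 24 h 0 of 7 were called by limma, while 36.7% of all genes were, and 1 member had an unadjusted p under 0.05. At that time Ccl3 (0.51 ± 0.32) and Ccl4 (0.33 ± 0.27) passed when only these groups were fitted (adjusted p = 0.031 and 0.048, against 0.226 and 0.366), and Ccl5 (0.50 ± 0.23, adjusted p = 0.0827) passed without combination rat69 (0.75, 0.014). At 48 h 0 of 7 were called (15.9% of all genes), again with 1 at an unadjusted p under 0.05.

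Ccl2 in the combination rats at 3 h read 7.90 in rat61, 5.51 in rat62 and 5.64 in rat63. For Ccl3 the same rats read 8.35, 6.17 and 5.84, and for Ccl4 8.22, 6.4 and 6.32. All 9 values lay above those of all vehicle rats at 3 h, and rat61 was the highest rat of the whole series for each of the 3 genes. Against vehicle, Ccl2 rose by 2.81 ± 0.41 (at least 3.94-fold, adjusted p = 1.90e-06), Ccl3 by 1.86 ± 0.32 (3.62-fold, adjusted p = 2.25e-05) and Ccl4 by 1.64 ± 0.27 (3.11-fold, adjusted p = 1.02e-05). Without rat61 the rises were 2.04, 1.08 and 1.02 and were still called (adjusted p = 8.78e-05, 0.000379 and 0.000236). The Ccl3 call was lost when only the groups of the comparison entered the fit (adjusted p = 0.0622). The array of rat61 had a median of 5.017, a GAPDH difference of 0.199 and a mean correlation with its group of 0.9852.

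Xcl1 in the same rats read 4.71, 4.82 and 4.31, so rat61 did not stand out for this gene. The rise over vehicle was 0.48 ± 0.18, at least 1.18-fold (adjusted p = 0.0342). Leaving out vehicle rat1, combination rat61 or combination rat62 ended this call (adjusted p = 0.286, 0.0996 and 0.17), as did the GAPDH covariate (0.0673), all vehicle rats as 1 control (0.134) and fitting only these groups (0.156). Ccl5 read 6.74, 7.42 and 7.12 and its difference from vehicle did not pass (0.25 ± 0.23, adjusted p = 0.423).

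Set directly against galactosamine alone at 3 h, Xcl1 was 9.98-fold lower in the combination (-3.32 ± 0.18, adjusted p = 7.24e-17), and it was the 1 member of 7 called, where 17.7% of all genes were. All 3 combination rats lay below 5 and all 3 galactosamine rats above 7. This difference ran from -3.16 to -3.59 when each rat was left out. It was called in each of the 13 alternatives that kept the gene, counting each rat left out as 1. Ccl2, Ccl3 and Ccl4 differed by -0.49 (95% interval -1.33 to 0.35), -0.51 (-1.16 to 0.14) and -0.67 (-1.21 to -0.13), with adjusted p = 0.45, 0.286 and 0.0769, and the 2 treatments overlapped for each. Without combination rat61 the differences were -1.26, -1.29 and -1.29 and all 3 were called (adjusted p = 0.0163, 8.47e-05 and 2.01e-05), and Ccl4 was also called without galactosamine rat17 (0.0304). Cell markers moved in both directions in the same comparison. Of 17 T and NK cell markers measured, 6 were higher and 0 lower in the combination at 3 h than in galactosamine, and their mean level lay between 4.78 and 5.17 in single combination rats and 4.54 and 4.73 in galactosamine rats. Of 11 macrophage markers 6 were higher and 0 lower, with mean levels of 8.23 to 8.41 and 7.61 to 7.77. Of 8 neutrophil markers 4 were higher and 0 lower, although 6 of the 8 were below background in every group. In contrast, 2 of 6 dendritic cell markers and 2 of 7 endothelial markers were lower and 0 of either higher. Their part in the chemokine results was not tested.

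**Figure D3:**
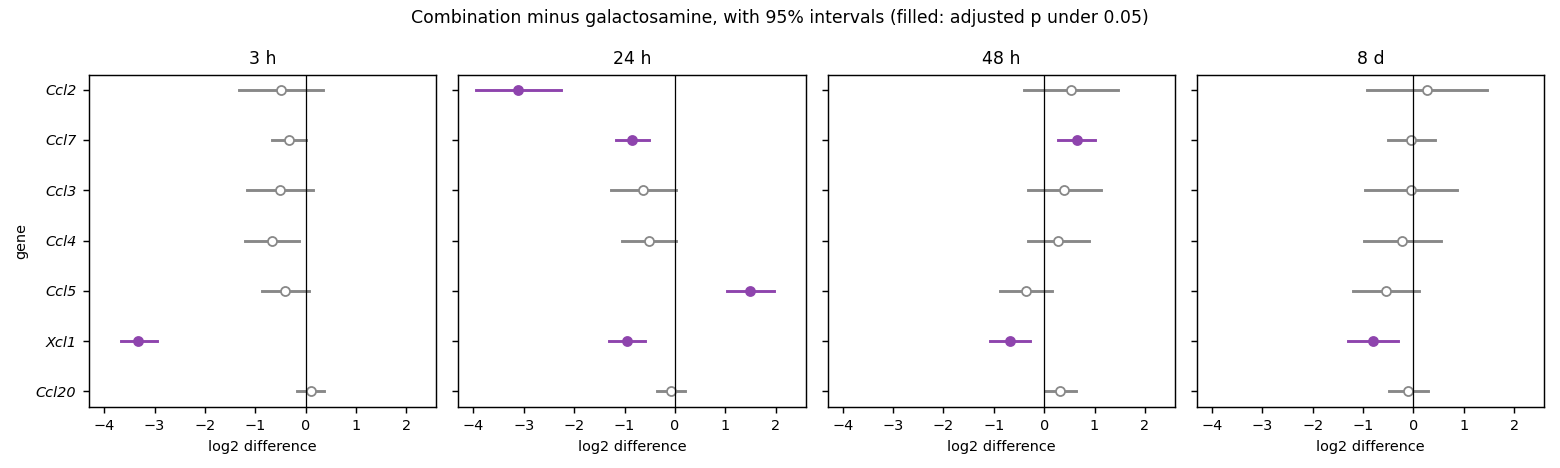
Combination minus galactosamine (log2, horizontal axes) for the 7 genes at 4 times, with 95% intervals of the fit. Filled points have an adjusted p under 0.05 (limma), and at 8 d each treatment is taken relative to its own vehicle group. Xcl1 lies left of 0 at all 4 times, at -3.32, -0.96, -0.67 and -0.80.

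At 24 h the treatments parted for 4 members, against 37.8% of all genes called. Ccl2 read 4.0, 2.84 and 3.85 in the combination rats, all below the lowest galactosamine rat at 5.96, and was at least 4.94-fold lower (-3.11 ± 0.41, adjusted p = 1.10e-07). Ccl7 read 3.8, 3.43 and 3.88 and was lower by at least 1.13-fold (-0.85 ± 0.16, adjusted p = 5.36e-05, but 0.0516 when only these groups were fitted). Xcl1 read 4.13, 4.08 and 4.14, level with vehicle, and was at least 1.63-fold lower (-0.96 ± 0.18, adjusted p = 2.95e-05). Ccl5, by contrast, read 7.53, 7.00 and 7.93 and was 2.83-fold higher than in galactosamine (1.5 ± 0.23, adjusted p = 1.25e-06). None of these 4 genes, picked here because they were called, overlapped between the treatments. The share of all genes without overlap was not computed. Ccl3 and Ccl4 were not called (-0.63 ± 0.32 and -0.52 ± 0.27, adjusted p = 0.123 and 0.13). Among cell markers at 24 h, 7 of 11 macrophage markers were higher and 1 lower, 5 of 17 T and NK cell markers were higher and 0 lower, and 5 of 7 endothelial markers were higher and 0 lower. Of 6 dendritic cell markers 1 was higher and 2 lower, of 9 hepatocyte markers 2 were higher and 2 lower, and 0 of 5 cholangiocyte and 0 of 3 B cell markers were called. Their part was not tested.

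Within the combination, Ccl2, Ccl3, Ccl4 and Xcl1 fell from 3 h to 24 h (-2.78 ± 0.41, -1.2 ± 0.32, -1.38 ± 0.27 and -0.50 ± 0.18, adjusted p = 6.42e-07, 0.00215, 5.28e-05 and 0.0203), where 41.2% of all genes were called. The same step of galactosamine alone left Ccl2 in place (-0.16 ± 0.41, adjusted p = 0.737), with 68.2% of all genes called. Without rat61 the Ccl3 difference was -0.42 and not called (adjusted p = 0.141), that of Ccl4 was -0.76 (adjusted p = 0.00272) and that of Xcl1 lost its call (0.0718). When only these 2 groups were fitted, Ccl3, Ccl4 and Xcl1 were not called (0.182, 0.0636 and 0.0575). From 24 h to 48 h none of the 7 was called in the combination (28.5% of all genes were, and 1 member had an unadjusted p under 0.05). In galactosamine alone that step lowered Ccl2, Ccl3, Ccl4 and Ccl7 and raised Ccl5, with 45.2% of all genes called. The Ccl3 and Ccl4 calls of this step (adjusted p = 0.0265 and 0.0355) were each lost without any 1 of galactosamine rat23, rat24, rat26 or rat27 (adjusted p from 0.065 to 0.136 for Ccl3 and 0.0874 to 0.153 for Ccl4).

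At 48 h Ccl2 in the combination read 4.75 in rat70, 3.37 in rat71 and 4.96 in rat72, and vehicle read 2.97, 3.46 and 3.21. The difference of 1.15 ± 0.41 did not pass (adjusted p = 0.0531). It passed without rat71 (1.64, adjusted p = 0.00674) and with all vehicle rats as 1 control (0.0185), so 1 rat stood with the vehicle animals and 2 above them. Rat70 and rat72, the 2 high rats, are also 2 of the 3 arrays that correlated least with their group. Ccl7 read 4.18, 3.90 and 4.21 and was above galactosamine (0.65 ± 0.18, adjusted p = 0.00617), with both group means below background. That call was lost without galactosamine rat27 (adjusted p = 0.0615) and without the 3 arrays that stood apart (0.167). Xcl1 was at least 1.5-fold lower than in galactosamine (-0.67 ± 0.20, adjusted p = 0.00848), and this too was lost without rat27 (0.0874). These were the 2 members called at 48 h, where 29.3% of all genes were.

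At 8 d, the time of the fibrosis, Xcl1 was the 1 member called against vehicle in the combination, and it was lower. The combination rats read 3.81, 3.43 and 3.70, below background, and the vehicle rats at 15 d read 4.46, 4.52 and 4.72, so the groups did not overlap. The difference was -0.92 ± 0.18, a fall of at least 1.14-fold (adjusted p = 0.000191), where 24.8% of all genes were called. Against nevirapine alone after the same 15 d of dosing, Xcl1 differed by -0.43 ± 0.18 and was not called (adjusted p = 0.111). Both of those group means lay below background, and the difference passed with array weights (-0.46, 0.023). Relative to the galactosamine effect at 8 d, the difference of Xcl1 from vehicle was -0.80 ± 0.25 (adjusted p = 0.0312, with 11.2% of all genes called). That call was lost without any 1 of 7 of the 12 rats (adjusted p from 0.0513 to 0.0913), namely vehicle rat99, rat101 and rat15, galactosamine rat102 and rat103, and combination rat84 and rat87, and with cyclic loess (0.0532). From 48 h to 8 d the combination fell by 0.64 ± 0.18 for Xcl1 (adjusted p = 0.00501, but 0.176 without the 3 arrays that stood apart) and by 0.43 ± 0.16 for Ccl7 (adjusted p = 0.0349), below background at both times, with 35.1% of all genes called. The Ccl7 call was lost without the 3 arrays that stood apart (-0.24, adjusted p = 0.458), relative to own vehicle (-0.24, 0.553), with cyclic loess (0.185), with array weights (0.0887), when only these groups were fitted (0.0554), and without any 1 of combination rat70, rat72, rat84 or rat87 (adjusted p = 0.0941, 0.107, 0.127 and 0.0538). Stellate cell and fibroblast markers were high in these livers, with 8 of 10 above vehicle and 0 below, while Ccl2 read 4.44, 3.61 and 3.8 (0.58 ± 0.41, adjusted p = 0.322). Ccl5 differed from vehicle by -0.42 ± 0.23 (adjusted p = 0.178), which passed with array weights (-0.5, 0.0326) and without combination rat73 (-0.68, 0.0363). None of the 7 was called as departing from the sum of the effects of the single drugs at 8 d (2.82% of all genes did, and 0 members had an unadjusted p under 0.05). The widest interval was that of Ccl2, 0.37 with a 95% interval of -0.82 to 1.56.

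With nevirapine alone no member was called higher, and the 1 called lower was Ccl5. The nevirapine rats read 6.19, 6.44 and 6.05 for Ccl5 at 48 h, against 7.42, 6.97 and 6.69 in vehicle, a 1.74-fold fall (-0.80 ± 0.23, adjusted p = 0.0132). This call was lost without vehicle rat10 (0.0949) or nevirapine rat42 (0.0598). At 15 d they read 6.36, 6.66 and 6.24 against 7.53, 7.76 and 7.5, a 2.26-fold fall (-1.18 ± 0.23, adjusted p = 0.000388). This fall was called in each of the 15 alternatives, counting each rat left out as 1. The groups did not overlap at either time. Ccl5 was the 1 member called of 7 at both, near the 17.4% and 13.9% of all genes called. At these times 3 and 2 members had an unadjusted p under 0.05. At 48 h Ccl3 (-0.42) and Ccl4 (-0.57) passed when only these groups were fitted (adjusted p = 0.025 and 0.0137). Under array weights Ccl4 (-0.55) and Ccl7 (-0.38) passed at that time (adjusted p = 0.0313 and 0.0212). At 3 h and 24 h 0 of 7 were called by limma (15.1% and 11.2% of all genes), with 1 and 2 members at an unadjusted p under 0.05. Xcl1 differed from vehicle by -0.49 at 15 d, which passed when only these groups were fitted (adjusted p = 0.00863) with array weights (0.00234) and without the 3 arrays that stood apart (0.043), but not in the fit of all groups (0.0562). At 24 h Xcl1 (-0.48) passed when only these groups were fitted, under array weights and against the 15 pooled vehicle rats (adjusted p = 0.0273, 0.0306 and 0.00164), and Ccl5 passed in the first and last of these (0.0333 and 0.0137). Ccl5 itself was 0.50 ± 0.23 above vehicle at 3 h and -0.53 ± 0.23 from it at 24 h (adjusted p = 0.133 and 0.135). With the injection added, Ccl5 at 15 d of dosing read 7.70, 6.87 and 6.97, above the 3 nevirapine rats (0.76 ± 0.23, 1.69-fold, adjusted p = 0.0212, with 12.4% of all genes called). That call was lost without nevirapine rat43 or rat45 or combination rat73 (adjusted p = 0.0703, 0.104 and 0.194). The mean level of the T and NK cell markers in the same livers lay between 3.99 and 4.07 in nevirapine rats at 48 h and 4.22 and 4.38 in vehicle, and between 4.06 and 4.13 against 4.30 and 4.50 at 15 d, with 3 and 4 of 17 markers lower and 0 higher, beside 17.4% and 13.9% of all genes called. At 48 h 4 of 7 endothelial markers were higher and 0 lower, and at 15 d 3 of 6 dendritic cell markers were lower and 0 higher. The part of these markers in the Ccl5 result was not tested. In galactosamine rats at 24 h, where Ccl5 was lowest, 0 of 17 were called and the mean level lay between 4.33 and 4.37 against 4.23 and 4.39 in vehicle.

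**Figure D4:**
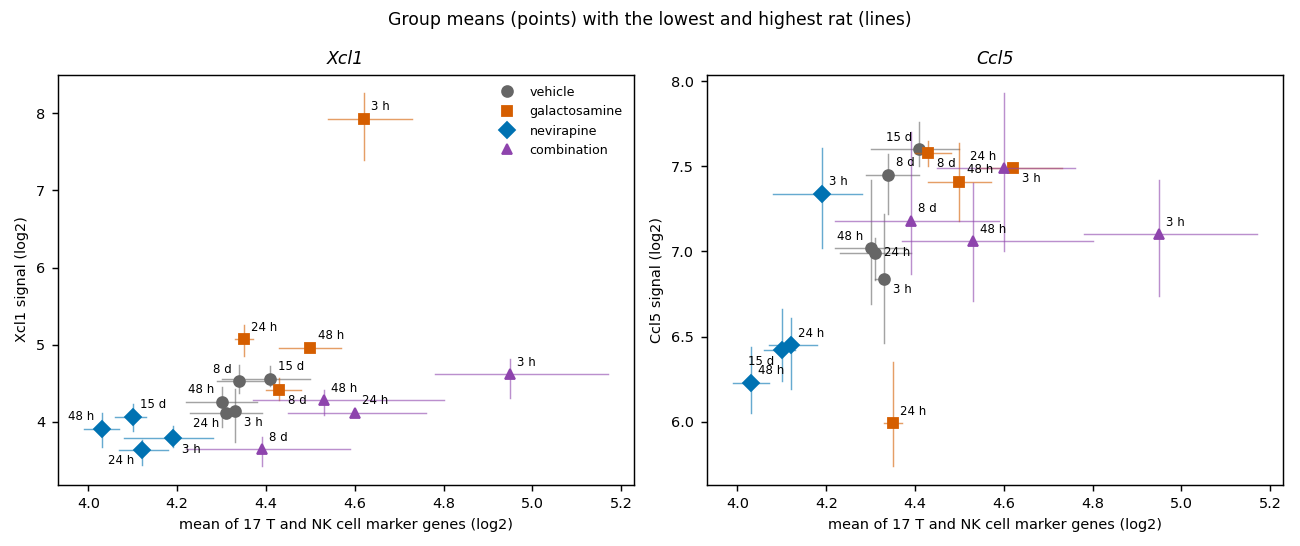
Group means of Xcl1 (left) and Ccl5 (right) on the vertical axes (log2) against the mean level of 17 T and NK cell marker genes (log2, horizontal axes), with the lowest and highest rat of each group as lines. The galactosamine group at 3 h stands at 7.93 for Xcl1 with markers at 4.62, and the combination group at 3 h at 4.62 for Xcl1 with markers at 4.95.

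Among vehicle rats 1 member changed between neighbouring times. Of 7 genes, 0 were called from 3 h to 24 h, from 24 h to 48 h or from 8 d to 15 d (1, 1 and 0 had an unadjusted p under 0.05, and 1.19%, 3.22% and 3.33% of all genes were called), and 1 was called from 48 h to 8 d, where 23.7% of all genes were. That gene was Ccl4, 1.74-fold lower at 8 d (5.08, 5.21 and 5.22) than at 48 h (-0.80 ± 0.27, adjusted p = 0.0275). The call was lost without any 1 of vehicle rat99, rat100, rat101, rat11 or rat12 (adjusted p from 0.0529 to 0.104) and with the GAPDH covariate (0.174), and the GAPDH difference averaged 0.612 at 48 h and 0.04 at 8 d.

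The receptors of these ligands could be followed in part: 10 of 15 on the list were measured, and Ccr7, Ccr8, Ccr9 and Xcr1 were among those not analysed here. Ccr2, Ccr3, Ccr4 and Ccr10 were below background in every group. Galactosamine raised 4 and lowered 0 of the 10 at 3 h, where 32.9% of all genes were called, among them Ackr4, an atypical receptor that scavenges chemokines (4.96 to 6.84, 1.89 ± 0.27, adjusted p = 6.64e-07), Ccrl2, a chemerin-binding relative of the CC receptors (4.47 to 5.65, 1.18 ± 0.19, adjusted p = 3.62e-06), and Ccr1, a receptor of Ccl3 and Ccl5 (3.75 to 4.35, 0.60 ± 0.15, adjusted p = 0.00132, below background in both groups). At 24 h 2 were higher and 4 lower, near the 58.8% of all genes called. Ccr1 was 0.54 ± 0.15 and Ccrl2 0.51 ± 0.19 above vehicle. The largest of the 4 falls was that of Ccr3 (-0.58 ± 0.15, adjusted p = 0.00146), below background in both groups. In the combination 4 were higher and 1 lower at 3 h, where 32.5% of all genes were called. Ackr4 was at 0.97 ± 0.27, Ccrl2 at 0.90 ± 0.19 and Ccr2 at 0.67 ± 0.15 (below background). Ackr4 was also above vehicle at 24 h (0.72 ± 0.27) and 8 d (1.02 ± 0.27). Between them, at 48 h, 0 of the 10 receptors were called, where 15.9% of all genes were. At 8 d 1 was higher and 1 lower, where 24.8% of all genes were called.

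Among other CC ligands, 10 of 13 were measured, and 3 were higher and 0 lower 3 h after galactosamine, near the 32.9% of all genes called. These were Ccl24, an eosinophil attractant (5.71 to 6.83, 1.12 ± 0.26), Ccl6, a myeloid ligand of rodents (9.08 to 10.16, 1.08 ± 0.26) and Ccl17, a CCR4 ligand (5.98 to 6.43, 0.45 ± 0.17), with adjusted p = 0.000682, 0.00113 and 0.0362. At 24 h 4 were higher and 3 lower, beside 58.8% of all genes called, with Ccl6 at 1.22 ± 0.26 and Ccl17 at 0.80 ± 0.17 above vehicle. In the combination Ccl11, the eosinophil chemokine eotaxin, led at 3 h (2.92 to 5.97, at least 3.04-fold, adjusted p = 8.74e-05). Ccl11 was higher again at 8 d (2.87 to 4.91, at least 1.45-fold, adjusted p = 0.00841). There it was the 1 ligand of the 10 above vehicle, and 1 was below it, Ccl27 (-0.57 ± 0.15, adjusted p = 0.00413). Of all genes, 24.8% were called at that time. Ccl6 was about 4-fold up in the combination at both 3 h (1.99 ± 0.26) and 24 h (2.00 ± 0.26).

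Among genes that induce chemokines or carry the NF-kB signal, more rose than fell in both treatments, with 19 of 21 measured and Il6 and Ifng below background in every group. Galactosamine raised 6 and lowered 3 at 3 h and raised 11 and lowered 2 at 24 h, and the combination raised 10 and lowered 3 at 3 h and raised 8 and lowered 1 at 24 h. Over all genes 32.9%, 58.8%, 32.5% and 36.7% were called in these 4 comparisons. The medians were 0.18, 0.74, 0.70 and 0.48, beside 0.00, -0.07, -0.06 and -0.01 over all genes. Il1b, the cytokine interleukin-1 beta, rose from 6.21 to 8.11 in galactosamine and to 8.56 in the combination at 3 h (adjusted p = 5.75e-06 and 2.64e-07). Tnfaip3, which encodes the NF-kB inhibitor A20, was 2.77-fold up at 3 h and 6.96-fold up at 24 h of galactosamine (adjusted p = 0.0156 and 3.84e-06), and Junb and Nfkb1 were 5.42-fold and 3.96-fold up at 24 h. In the combination at 24 h, Irf1 was 2.96-fold and Il1b 2.33-fold above vehicle (adjusted p = 3.22e-06 and 0.0016). Fos was 11.9-fold above vehicle in the combination at 3 h (8.45 against 4.87, adjusted p = 0.00468). At 24 h it was at least 6.19-fold below vehicle (3.58 against 7.0, adjusted p = 0.00487), with vehicle itself higher than at 3 h. Against galactosamine, 5 of the 19 were higher and 0 lower in the combination at 3 h, beside 17.7% of all genes called. At 24 h 2 were higher and 8 lower, beside 37.8% of all genes called.

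Cell markers moved with the early rise. Beside them, 32.9% of all genes were called at 3 h of galactosamine (14.9% higher), 58.8% at 24 h, 39.4% at 48 h and 32.5% at 3 h of the combination. At 3 h of galactosamine 9 of 11 macrophage markers were higher and 0 lower, with Adgre1, Cd163 and Cd5l up 2.80-fold, 2.78-fold and 2.35-fold, 7 of 7 endothelial markers were higher, and 5 of 17 T and NK cell markers were higher and 0 lower, with Klrd1, a subunit of an NK receptor, at least 1.41-fold and the cytolytic genes Prf1 and Gzma 1.72-fold and 1.57-fold up. The mean macrophage level was 7.61 to 7.77 in single galactosamine rats and 6.5 to 7.13 in vehicle rats, and that of T and NK cell markers 4.54 to 4.73 and 4.31 to 4.34. Of 8 neutrophil markers measured, 6 were below background in every group and 0 were called at this time. At 3 h of the combination 11 of 11 macrophage and 10 of 17 T and NK cell markers were higher and 0 of either list lower. At 24 h of galactosamine 2 of 11 macrophage markers were higher and 1 lower, among them Lyz2 at 8.40-fold up and Cd14 at 2.72-fold down, and 0 of 17 T and NK cell markers were called. At 48 h of galactosamine 9 of 11 macrophage markers were higher and 1 lower, with Ccl2, Ccl3 and Ccl4 not called against vehicle. The part of these cell types in the chemokine changes was not tested.

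Over the 17 group means, the genes most like Ccl3 were Ccl4 (Pearson r = 0.943), Ccl2 (0.933) and Ccrl2 (0.919), and Ccl2 was most like Ccl3, the zinc finger factor Egr2 (0.903) and the CXCR3 ligand Cxcl10 (0.891). Ccl4 was most like Ccl3, Ccrl2 (0.881) and Tmcc2 (0.867). Xcl1 was most like the neutrophil attractant Cxcl2 (0.832), the sphingosine 1-phosphate receptor S1pr3 (0.80) and Ccl3 (0.797). Ccl7 was nearest to Ccl17 (0.87), Zbp1 (0.867) and Cst7 (0.804), and Ccl5 to Fcna, Pltp and the Kupffer cell lectin Clec4f (0.799, 0.796 and 0.793). Ccl20, below background throughout, had Spink1l, Nampt and Golph3 (0.717, 0.704 and 0.704). These values describe 17 groups on shared arrays, among 6816 genes whose highest group mean was above background and whose group means ranged over more than 1 log2 unit.

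Single rats of a group also varied together in 3 of the genes. Taking each of the 50 rats as its deviation from its group mean, r was 0.83 between Ccl2 and Ccl4, 0.82 between Ccl3 and Ccl4 and 0.75 between Ccl2 and Ccl3, but 0.45 between Ccl3 and Xcl1, -0.17 between Ccl3 and Ccl5 and 0.17 between the neighbouring genes Ccl2 and Ccl7. Combination rat61 is among the rats that enter the first 3 values, and they were not computed without it. These are descriptions of rats that share arrays with every gene compared.

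**Figure D5:**
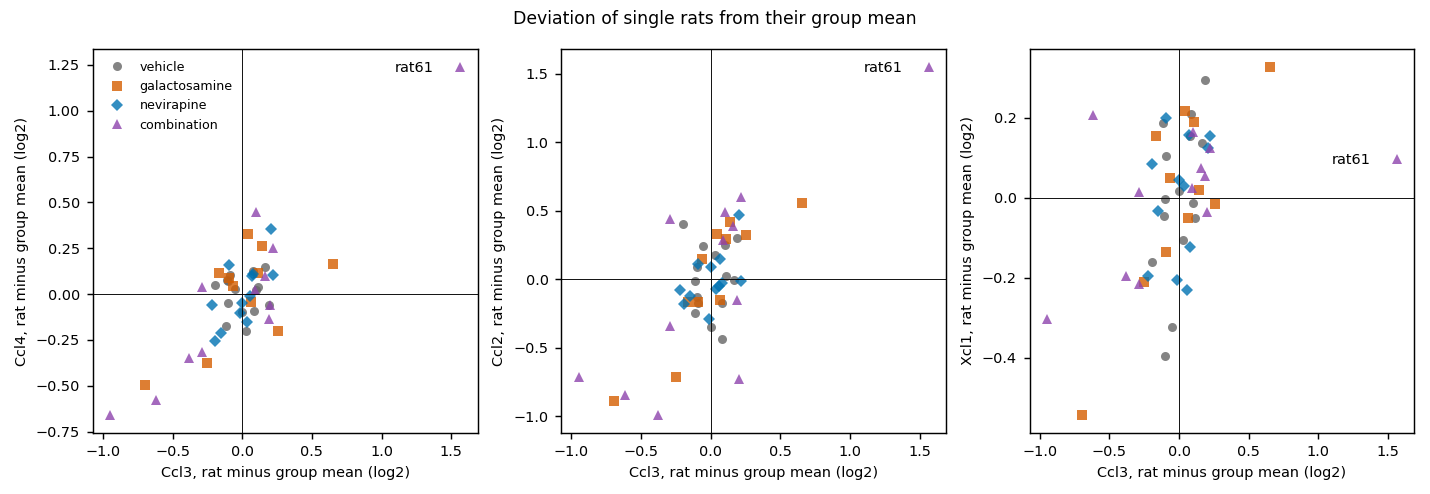
Each of the 50 rats as its deviation from its group mean (log2), with Ccl3 on the horizontal axes and Ccl4, Ccl2 or Xcl1 on the vertical axes. Rat61 of the combination at 3 h lies at the upper right for Ccl4 and Ccl2 and near 0 on the vertical axis for Xcl1.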

How the data were processed

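Liver RNA from 50 rats was hybridised to 1 Affymetrix expression array each, after Trizol and RNeasy extraction and 3′ IVT Express labelling, per the labels' protocols. The deposited values are log2 probe set signals, for which the submitters' processing notes name RMA and limma without versions. They were used without further scaling. Of 31099 probe sets, 20826 had 1 gene symbol, 436 several and 9780 none, and 57 were controls. Each of 14217 genes was read from its brightest probe set by mean signal. Groups came from the sample labels. Limma 3.58.1 in R 4.3.3 fitted 1 mean per group to all 50 arrays, with eBayes. P-values were adjusted by Benjamini-Hochberg over 14217 genes within each of 28 comparisons, with calls at adjusted p under 0.05. Rats were unpaired. The combination at 8 d was set against vehicle at 15 d, and against galactosamine as the difference of effects on their own vehicle groups. The fits were tested on simulated data. The 7 members, the gene lists and the comparisons were chosen with earlier results of these data known. Named besides the members were the 3 largest called changes of each list at 3 h and 24 h (for receptors, ligands and inducers in the combination too, and at 8 d), of which some are given, and per member the 3 genes with the highest r. Alternatives were only the groups compared, a trended robust prior, a filter that removed the dimmest 40% of genes, averaged probe sets, cyclic loess, array weights, a pooled control of the 15 vehicle rats, the 8 d in place of the 15 d vehicle group for the last combination time, own-vehicle steps and each rat left out. Averaging probe sets left the signals of the 7 members themselves unchanged, since each had 1. The GAPDH covariate and leaving out 3 arrays were added after seeing the data. Tables and plots used Python 3.11.15 with pandas 2.3.3, numpy 2.4.6 and matplotlib 3.10.9. One receptor of the list is not reported here.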

Additional observations from a re-analysis of the deposited data

Results flagged for a closer look

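These results were singled out because a treatment effect differed between the combination and galactosamine, or between neighbouring times, by a test of the difference itself (limma, adjusted over all genes). Xcl1 was lower in the combination than in galactosamine at all 4 times, by -3.32, -0.96, -0.67 and -0.80 on the log2 scale. Ccl2 differed by -3.11, Ccl7 by -0.85 and Ccl5 by 1.5 at 24 h, and Ccl7 by 0.65 at 48 h. The galactosamine effect, each time relative to its own vehicle group, changed from 3 h to 24 h by -2.85 for Xcl1, -1.23 for Ccl3, -1.46 for Ccl4, -1.64 for Ccl5 and 0.72 for Ccl7. From 24 h to 48 h it changed by -2.68 for Ccl2, -1.46 for Ccl4, 1.39 for Ccl5 and -1.37 for Ccl7, and from 48 h to 8 d by -0.81 for Xcl1. The combination effect changed from 3 h to 24 h by -2.62 for Ccl2, -1.35 for Ccl3 and -1.31 for Ccl4, and from 48 h to 8 d by -0.94 for Xcl1. All groups held 2 or 3 rats, too few to look for single outlying animals by a rule.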

How the results depend on the processing

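Of 196 member results (7 genes in 28 comparisons), 46 were called, of which 25 kept their call in every alternative that held the gene and 21 lost it in at least 1. Of 150 results not called, 33 were called in at least 1, and 0 reversed direction while called. Counts of members called moved by over 1.5 times as follows. Without the dimmest 40% of genes, which leaves Ccl4 and Ccl5, galactosamine against vehicle gave 2 at 3 h, 2 at 24 h and 0 at 48 h, the combination against vehicle 1 at 3 h and 0 at 8 d, the combination against galactosamine 0, 1, 0 and 0 over the 4 times, the galactosamine steps 2, 2 and 0, and the combination steps 1 from 3 h to 24 h and 0 from 48 h to 8 d. With only the groups compared in the fit, counts were 4 for galactosamine at 48 h, 2, 3 and 2 for nevirapine at 24 h, 48 h and 15 d, 2 and 2 for the combination at 3 h and 24 h, 1 and 1 for its first and last step, and 1 for vehicle from 24 h to 48 h. For galactosamine at 48 h the trended robust prior, the mean of probe sets, cyclic loess and leaving out 3 arrays each gave 2, array weights 4 and the GAPDH covariate 0. Array weights gave 1, 3 and 2 for nevirapine at 24 h, 48 h and 15 d, 2 for the combination at 8 d against vehicle and 2 against nevirapine, 1 for its last step and 1 for vehicle from 3 h to 24 h. Cyclic loess gave 0 for the combination against galactosamine at 8 d and 1 for the last combination step. All vehicle rats as 1 control gave 1, 2 and 2 for nevirapine at 3 h, 24 h and 15 d and 1 for the combination at 48 h. Own-vehicle steps gave 1 for the last step of each treatment. The GAPDH covariate gave 3 for galactosamine from 24 h to 48 h and 0 for vehicle from 48 h to 8 d. Leaving out 3 arrays gave 2 for nevirapine at 15 d, 1 for the combination against galactosamine at 48 h and 0 for the last combination step. Except for the dim-gene filter, the cause was not tested. Leaving out each rat in turn, counts ran from 0 to 2 for galactosamine at 48 h, 0 to 1 for nevirapine at 48 h, 0 to 1 for the combination at 24 h and at 48 h, 1 to 2 at 8 d, 1 to 4, 0 to 2 and 0 to 1 for the combination against galactosamine at 3 h, 48 h and 8 d, 0 to 1 against nevirapine, 3 to 5 and 0 to 3 for the second and last galactosamine steps, 2 to 4, 0 to 2 and 1 to 2 for the combination steps, and 0 to 1 for vehicle from 48 h to 8 d. No paired analysis was possible because rats carry no shared numbers between groups. Precision is limited by 2 or 3 arrays per group, and levels under background by the signal.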
